A study of Mus musculus with 3 samples.

Results

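Hif1a, the oxygen-regulated subunit of hypoxia-inducible factor 1, and 9 genes of glucose uptake, glycolysis and lactate formation (Slc2a1, Hk2, Aldoa, Tpi1, Pgk1, Eno1, Pkm, Ldha and Ldhb) were followed across populations of myeloid cells from the mouse hippocampus. They were taken by symbol from the gene column of the count tables, which gave 11 rows of the 31053 listed, since 2 rows carry the name Aldoa. Levels were read in the 19791 cells with at least 1000 UMIs (unique molecular identifiers, which count captured RNA molecules rather than reads), at least 500 genes and at most 10% of UMIs from mitochondrial (mt-) genes. Every animal had the genotype Cx3cr1CreERT2/+, Rosa26tdTomato/+ and NestinTK-eGFP/+, and received tamoxifen at 100 mg/kg on 4 days in a row to switch on the tdTomato reporter. Cells positive for tdTomato were sorted from both hippocampi of PBS-perfused brains after myelin had been removed on magnetic columns. The 12 animals of the labels (6 female, 6 male) form 1 group, sequenced as 3 droplet libraries called runs 1, 2 and 3, and the labels do not assign animals to runs. There was no untreated or reporter-negative group, so all comparisons were between populations of cells inside the runs. The Cx3cr1 locus, which drives the Cre recombinase, is active in microglia and also in border macrophages and monocytes, so the reporter alone does not separate these cells.

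Glycolysis turns glucose into pyruvate in the cytosol, and lactate dehydrogenase then interconverts pyruvate and lactate. When oxygen is plentiful the HIF-1 alpha protein is hydroxylated, bound by the Vhl protein and degraded, so the amount of Hif1a RNA and the activity of the protein can differ. When the protein is stable it pairs with Arnt and binds short DNA motifs near many genes of glucose uptake and glycolysis, and immune cells including microglia are known to raise glycolysis when activated. Lactate dehydrogenase is a tetramer of subunits encoded by Ldha and Ldhb, and tissues differ in the proportion of the 2 subunits.

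The promoters of the 10 genes were read for the core letters of the HIF-1 binding motif, ACGTG and GCGTG, on both strands. The palindrome CACGTG holds ACGTG once on each strand and counts as 2 matches. RefSeq promoters (GRCm38.p6, 250 bases before to 50 bases after a start site) matched all 10 symbols and gave 16 start sites. At least 1 of the motifs lay in 13 of these 16 windows, against 43.8% of the 32851 promoters in the table. ACGTG was found in 8 of the 16 windows, against 19.6% of all promoters, and GCGTG in 7, against 32.4%. The windows at start sites 2 and 3 of Aldoa overlap and share their match. Those at start sites 2 and 3 of Eno1 also overlap and share their matches. The counts of windows therefore include repeated matches, and these windows are not independent. By gene, 9 of 10 had a match in at least 1 window, and Tpi1 had none. The share by gene was not computed for all promoters, and genes with several windows have more chances of a match. The 4 windows printed here hold the most matches (Ldha, first start site, chr7:46845554-46845853, plus strand, 7 matches), 2 matches (Pgk1, chrX:106186850-106187149, plus strand), no match (Tpi1, chr6:124814109-124814408, minus strand) and 1 match (Ldhb, chr6:142507908-142508207, minus strand). They are shown because Ldha, Pgk1 and Tpi1 were higher, and Ldhb was not, in the lipid marker cells described below. Capitals mark the matched letters, and each sequence runs 5′ to 3′ on the strand of the gene.
Ldha: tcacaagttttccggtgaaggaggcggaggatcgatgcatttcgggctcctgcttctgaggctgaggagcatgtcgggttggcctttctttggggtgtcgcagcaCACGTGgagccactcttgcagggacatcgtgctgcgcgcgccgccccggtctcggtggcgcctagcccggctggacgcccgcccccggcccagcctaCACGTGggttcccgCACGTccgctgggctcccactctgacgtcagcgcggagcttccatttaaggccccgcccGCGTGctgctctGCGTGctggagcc
Pgk1: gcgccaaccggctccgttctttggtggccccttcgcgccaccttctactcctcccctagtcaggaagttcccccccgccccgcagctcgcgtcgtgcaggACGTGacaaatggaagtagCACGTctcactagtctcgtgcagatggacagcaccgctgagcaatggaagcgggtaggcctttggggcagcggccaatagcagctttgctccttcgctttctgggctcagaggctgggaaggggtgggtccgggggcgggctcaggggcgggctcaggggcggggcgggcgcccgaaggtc
Tpi1: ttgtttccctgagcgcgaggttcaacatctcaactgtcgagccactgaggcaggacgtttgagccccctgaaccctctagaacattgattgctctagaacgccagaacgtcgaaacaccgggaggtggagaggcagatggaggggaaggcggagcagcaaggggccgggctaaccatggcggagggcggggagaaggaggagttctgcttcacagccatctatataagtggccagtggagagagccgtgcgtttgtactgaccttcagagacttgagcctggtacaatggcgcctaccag
Ldhb: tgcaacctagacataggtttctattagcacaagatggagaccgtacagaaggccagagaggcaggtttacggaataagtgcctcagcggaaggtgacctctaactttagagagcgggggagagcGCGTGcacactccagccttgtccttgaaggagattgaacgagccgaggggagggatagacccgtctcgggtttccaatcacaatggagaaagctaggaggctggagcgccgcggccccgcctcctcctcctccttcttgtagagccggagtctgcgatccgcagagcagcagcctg
A match is a string of letters in these windows and no measurement of binding. The windows printed above were picked with the levels known, and the counts depend on the start site. The first windows of Aldoa and Pkm also had no match, and the second window of Ldha had 2. Whether motif counts go with levels was not tested.

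The 3 runs held 24225612 to 34140879 UMIs in 6226 to 7255 barcodes, and kept 6078 to 6993 cells with a median of 3438 to 4425 UMIs per cell. Between 16 and 19 barcodes of a run also occurred in another run. Gene counts differed between runs by a chi-square of 31.6 to 68.1 per degree of freedom, and between random parts of 1 run by 1.32 to 1.95, so the runs were counted as 3 samples. Nothing states that they came from separate animals, and differences between these libraries may be technical. The run was a block in the main fits, which takes out differences shared by all populations of a run. The p-values therefore set differences between populations against how far such differences varied from run to run. This spread was pooled over the populations of a fit and, for each gene, drawn toward the spread of all genes. It is no measure of the spread between animals. Cells were assigned by marker genes with a UMI, none of which is among the 10 genes. The remaining microglia, with at least 2 of 8 microglia markers and no other gate, made up 93.5% ± 3.65 (SD, n = 3) of a run, and their P2ry12 level was 3636 to 5018 CPM (UMIs of a gene per 1000000 UMIs of the same population and run). The other gates that could be tested held 22 to 69 cells per run. They were named for their markers: the border macrophage gate (Mrc1, Pf4, Cd163, F13a1, Lyve1, Cbr2, Ms4a7), the MHC class II gate (Cd74, H2-Aa, H2-Ab1, H2-Eb1), the lipid marker gate (Spp1, Gpnmb, Itgax, Lpl, Lgals3, Fabp5, Cst7) and the interferon gate (Ifit1, Ifit2, Ifit3, Isg15, Rsad2, Oasl2, Usp18, Irf7), each with at least 3 of the markers. Marker levels follow from the gates, since remaining microglia are cells that met no other gate. They describe the gates and do not test them. Mrc1, for example, was at 972 to 2005 CPM in the border macrophage gate and 2.6 to 4.2 CPM in remaining microglia. Gpnmb was nearly absent even in the lipid marker gate, at 0 to 7.74 CPM, so this gate rested on the other markers, led by Lpl at 591 to 850 CPM.

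All 10 genes were detected in the remaining microglia of every run. Hif1a (ENSMUSG00000021109, chromosome 12, 73901375 to 73947530, GRCm38) was at 88.4, 67.3 and 81.8 CPM in runs 1, 2 and 3. Slc2a1, which encodes the glucose transporter GLUT1, was at 24.5, 42.7 and 32.5 CPM. Hk2, the hexokinase that traps glucose as glucose 6-phosphate, was at 415, 292 and 368 CPM and gave 87.2% ± 1.16 (SD, n = 3) of the UMIs of Hk1, Hk2 and Hk3. The enzymes of the middle of the pathway followed. Aldoa, which splits the 6-carbon sugar, was at 208, 256 and 175 CPM, and Tpi1, which interconverts the resulting 3-carbon sugars, at 66.7, 99.0 and 61.8 CPM. Pgk1, the first step that yields ATP, was at 45.7, 62.6 and 49.1 CPM, and Eno1 (enolase) at 163, 136 and 140 CPM. Pkm, the pyruvate kinase that completes the pathway, was at 139, 184 and 146 CPM. The counts do not separate its M1 and M2 splice forms. Of the lactate dehydrogenase subunits, Ldha was at 116, 176 and 117 CPM and Ldhb at 610, 697 and 561 CPM. Run 2 had the highest Slc2a1, Aldoa, Tpi1, Pgk1, Pkm, Ldha and Ldhb of the 3 runs and the lowest Hif1a, Hk2 and Eno1, a difference between single libraries without a test. The second Aldoa row (ENSMUSG00000114515) had 3 UMIs in remaining microglia of run 1 and 0 in the other tested populations and runs, so Aldoa below is ENSMUSG00000030695. Several of these genes, among them Aldoa, Eno1, Ldha, Pgk1 and Tpi1, have near-identical processed copies in the genome, and how reads shared with such copies were counted is not given in the sources used here.

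**Figure D1:**
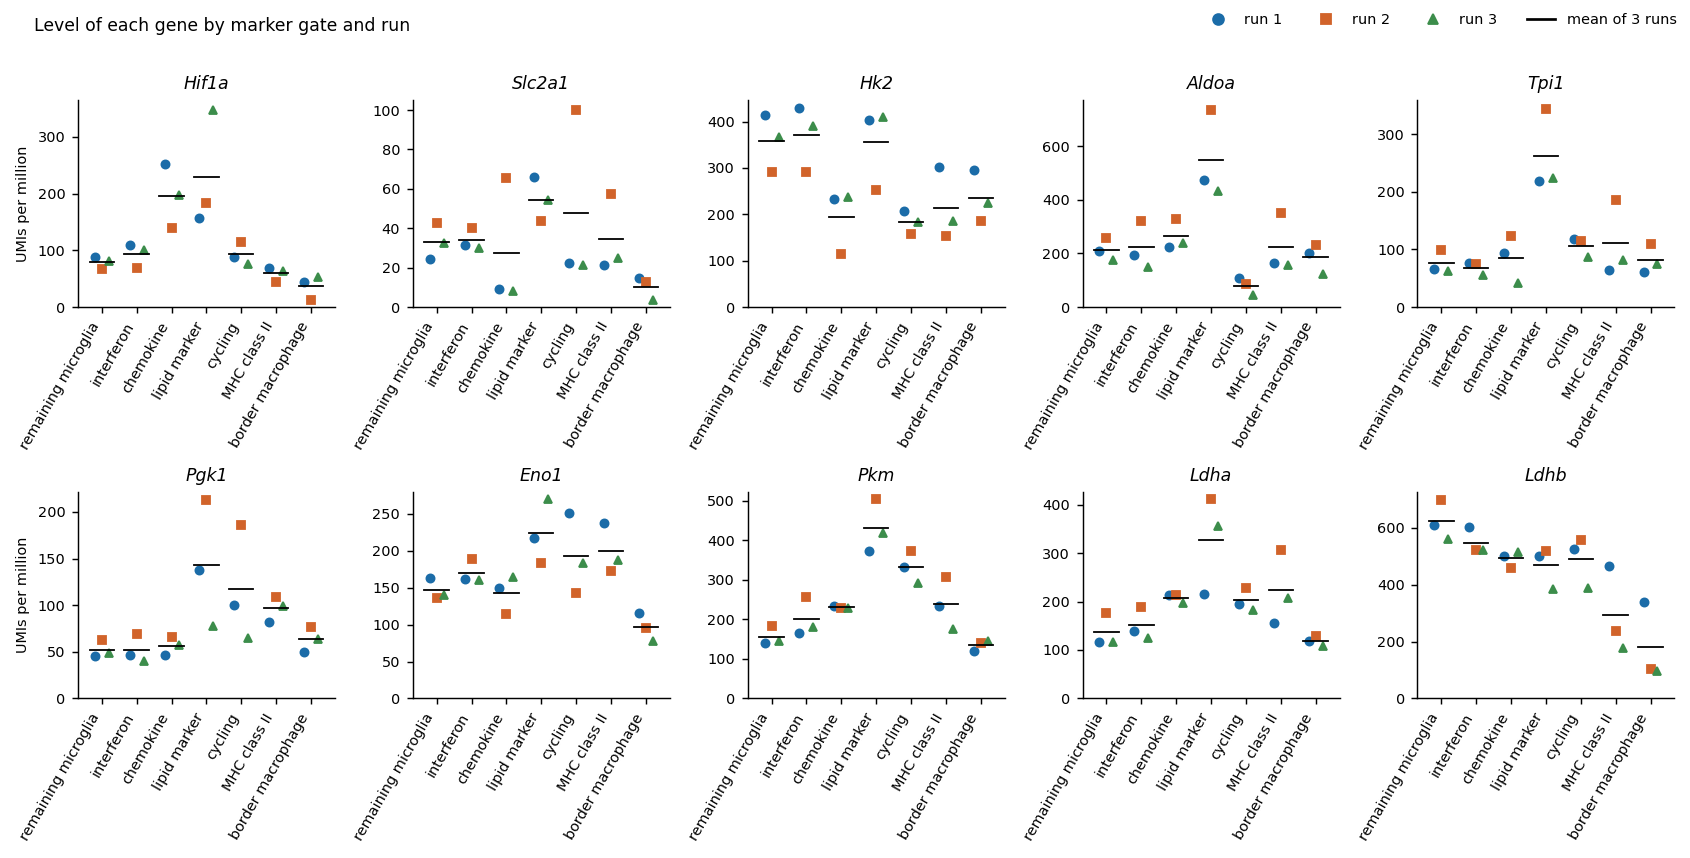
Levels in CPM (vertical axis, from 0, own scale per gene) of the 10 genes in 7 marker gates (horizontal axis). Points are the 3 runs and short lines their mean; the lipid marker gate has the highest mean of all 7 gates for Hif1a, Slc2a1, Aldoa, Tpi1, Pgk1, Eno1, Pkm and Ldha, and the border macrophage gate the lowest for Hif1a, Slc2a1, Eno1, Pkm, Ldha and Ldhb.

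Cells of the lipid marker gate had more RNA of most of the glycolytic genes than the remaining microglia. Of the 10 genes 7 were higher and 0 lower by the quasi-likelihood test of edgeR after Benjamini-Hochberg adjustment (adjusted p under 0.05). DESeq2 called 8 higher and 0 lower. Of the 5258 genes tested 7.7% were higher, 10.1% lower and 17.8% changed in either direction. The median log2 change was 1.29 over the 10 genes and -0.11 over all genes tested. The levels of 8 genes were higher in each lipid marker run than in any run of remaining microglia, against 13.3% of all genes, and 1 gene (Ldhb) was lower in each, against 20.1%. The 10 genes and these gates were chosen with earlier results of the same data known, so the counts describe them.

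Hif1a was at 158, 184 and 348 CPM in the lipid marker gate of runs 1, 2 and 3, and its log2 change was 1.44 ± 0.20 (SE, adjusted p = 2.48e-05). Each of these runs lay above all 3 runs of remaining microglia, and run 3 was the highest. Without run 3 the change was 1.12, and with 1 more marker required (7, 12 and 8 cells) it was 1.05 with an adjusted p of 0.0507. Slc2a1 was at 66.0, 43.6 and 54.1 CPM, from 7 to 23 UMIs per run. Its groups did not overlap, but its change of 0.84 ± 0.31 missed the threshold (adjusted p = 0.059). With DESeq2 it passed, at 0.94 (adjusted p = 0.0399), and without run 1 it was 0.23. Hk2 was at 404, 252 and 410 CPM, which overlapped the remaining microglia, and its change was -0.02 with a 95% interval of -0.34 to 0.31. Its estimate was the one nearest 0 among the 10 genes in this comparison.

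Tpi1 had the largest change of the 10 genes, with 218, 344 and 224 CPM and a log2 change of 1.80 ± 0.18 (adjusted p = 1.7e-07). Aldoa was at 473, 736 and 433 CPM, a change of 1.35 ± 0.17 (adjusted p = 4.57e-06). Pgk1 was at 138, 213 and 77.3 CPM, a change of 1.53 ± 0.20 (adjusted p = 7.84e-06), the last value from 10 UMIs. For these 3 genes run 2 was the highest, as it was in remaining microglia. Pkm was at 373, 504 and 417 CPM, a change of 1.48 ± 0.16 (adjusted p = 4.47e-07). Ldha was at 215, 412 and 356 CPM, a change of 1.24 ± 0.17 (adjusted p = 1.88e-05). Eno1 was at 218, 184 and 271 CPM, a change of 0.60 ± 0.17 (adjusted p = 0.0144), the smallest among the genes that passed. Ldhb, in contrast, was at 502, 518 and 386 CPM, all below the remaining microglia, with a change of -0.43 ± 0.23 that missed the threshold (adjusted p = 0.222). Eno1 no longer passed when any 1 run was left out (adjusted p = 0.0549 without run 1, 0.0991 without run 2 and 0.118 without run 3). Aldoa, Ldha, Pgk1, Pkm and Tpi1 passed under all 15 alternatives, with log2 changes between 1.06 and 1.93.

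Depth and other cell types were measured beside this result. Median UMIs per cell were 6818, 5529 and 5608 in the lipid marker gate and 4390, 3426 and 3650 in remaining microglia. The median percent of mt- UMIs was 4.08, 3.15 and 4.93% against 2.58, 2.09 and 2.58%. With only cells of at least 5000 UMIs in both populations, Tpi1 was higher by 1.55, Pkm and Pgk1 by 1.29 each, Hif1a by 1.18, Aldoa by 1.14 and Ldha by 1.06 on the log2 scale, all with adjusted p under 0.05, and Eno1 by 0.51 (adjusted p = 0.0672). Of 6 monocyte markers, Ccr2 alone had UMIs in this gate (8.6 CPM in run 1), and the 6 were at 0 in runs 2 and 3. The summed astrocyte markers were at 193 to 247 CPM, against 251 to 389 in remaining microglia. Barcodes with RNA of both sexes (Xist together with Y-linked UMIs) were 6.8, 2.8 and 0% of the gate, and without them the call for each of the 7 genes held.

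Other genes of the pathway were read from lists written with earlier results known. Of 21 further glycolysis genes 10 passed the filter on low counts, of which 3 were higher and 1 lower. Gapdh, the enzyme between Tpi1 and Pgk1, rose by 1.15 ± 0.16, from 561 to 1236 CPM (adjusted p = 2.21e-05). Pgam1, the mutase between Pgk1 and Eno1, rose by 0.98 and Gpi1, the isomerase after hexokinase, by 0.78. Slc2a5, a fructose transporter that marks microglia, fell by 1.80 on the log2 scale, from 412 to 113 CPM. The 4 tested partners and regulators of HIF (Arnt, Egln1, Egln2 and Vhl) had changes between -0.48 and 0.06, short of the threshold. Among 6 other HIF target genes tested 1 was lower. This was Ddit4, an inhibitor of mTOR signalling, with a fitted change of -2.61. Its 19 UMIs in the lipid marker gate all came from run 1 (54.5 CPM), runs 2 and 3 were at 0, and the range of 53.7 to 256 CPM in remaining microglia overlapped it. Ogdh and Sdhb of the citrate cycle (2 of 16 tested) rose by 0.70 and 0.59, and Tkt of the pentose phosphate pathway (1 of 4 tested) by 0.71.

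**Figure D2:**
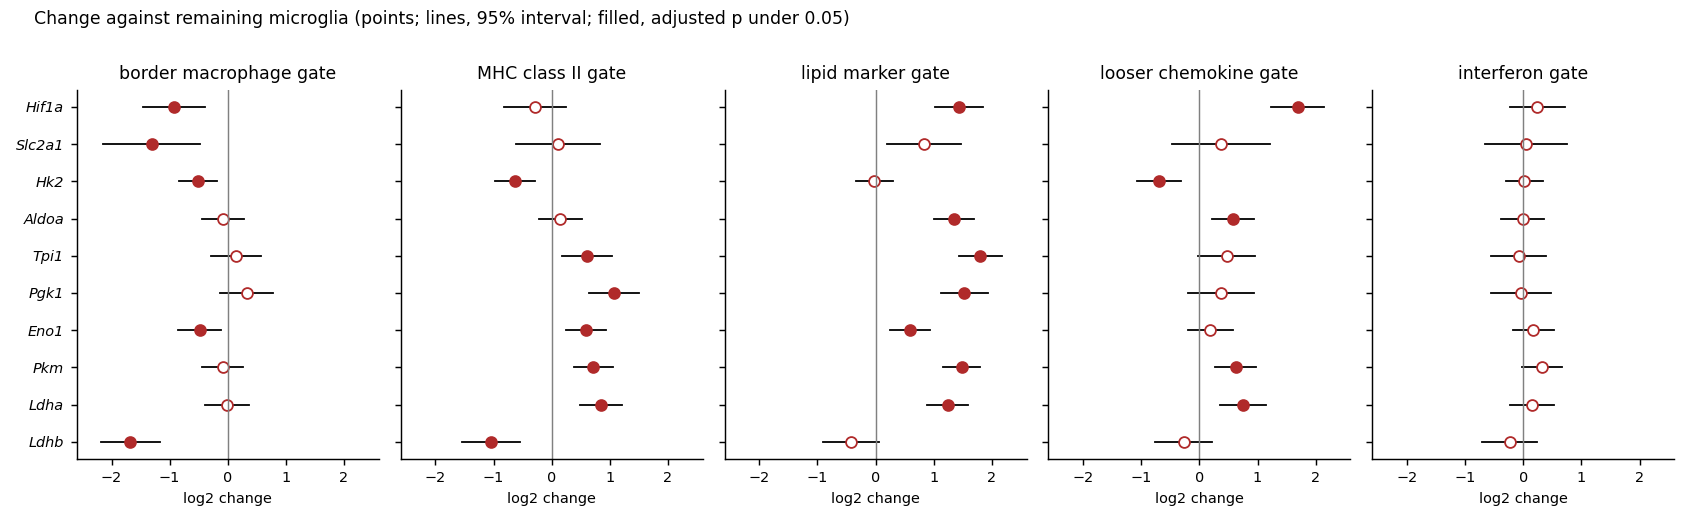
Log2 change of the 10 genes in 5 marker gates against remaining microglia. Points are edgeR estimates, lines 95% intervals, and filled points have an adjusted p under 0.05; the lipid marker gate has 7 filled points to the right of 0, the border macrophage gate 5 to the left, and the interferon gate none.

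Cells with high Ccl3 and Ccl4, chemokines of activated microglia, had the other high level of Hif1a. The gate with at least 4 UMIs of each held 18, 25 and 26 cells, too few in run 1 for the test, and Hif1a was at 251, 139 and 197 CPM there. A gate with at least 3 UMIs of each (24, 29 and 39 cells), added after the data had been seen, was tested. Of the 10 genes 4 were higher, against 4.09% of the 4674 genes tested, and 1 lower, against 3.68% (7.77% in either direction). The runs did not overlap for 4 genes above (Hif1a, Ldha, Pkm and Aldoa), against 9.5% of all genes, and 2 below (Hk2 and Ldhb), against 19%. Hif1a was at 344, 210 and 201 CPM, a log2 change of 1.69 ± 0.22 (adjusted p = 4.27e-06), the largest of the 10 genes. Its 3 runs lay above all runs of remaining microglia. Ldha (0.75 ± 0.19), Pkm (0.62 ± 0.17) and Aldoa (0.58 ± 0.18) rose and Hk2 fell by 0.70 ± 0.18, with adjusted p of 0.0144, 0.0262, 0.0410 and 0.0175 by edgeR's test. Tpi1 (0.47 ± 0.24), Pgk1 (0.37 ± 0.28), Slc2a1 (0.37 ± 0.41), Eno1 (0.18 ± 0.19) and Ldhb (-0.27 ± 0.24) missed the threshold. Only Hif1a passed under all 8 alternatives. Leaving out run 1, 2 or 3 left 2, 1 and 3 of the 5 calls, and a fit without the run as a block left 1. Pfkfb3, whose product makes the activator of phosphofructokinase, rose by 1.37, from 30.5 to 78.0 CPM.

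The lipid marker and looser chemokine gates were also compared directly, a comparison added after the levels had been seen. Hif1a did not separate them, at a change of -0.24 with a 95% interval of -0.76 to 0.27. Tpi1 was higher in the lipid marker gate by 1.33 ± 0.25, Pgk1 by 1.16 ± 0.29, Pkm by 0.86 ± 0.18 and Aldoa by 0.77 ± 0.19 (adjusted p = 0.00146, 0.0205, 0.00722 and 0.0182 by edgeR's test). These are 4 of 10 genes, while 0.813% of the 4674 genes tested were higher, 1.99% lower and 2.8% changed in either direction. The runs did not overlap for 4 genes (Tpi1, Pkm, Aldoa and Eno1), all above, against 8.64% of all genes above and 8.07% below. Ldha differed by 0.49 with an interval of 0.06 to 0.92 (adjusted p = 0.243). Hk2 (0.68 ± 0.20, adjusted p = 0.0673), Eno1 (0.41 ± 0.21), Slc2a1 (0.47 ± 0.47) and Ldhb (95% interval -0.68 to 0.39) missed the threshold as well. Without run 2 none of the 4 passed, and a fit without the run as a block passed none of the 10 (5 at an unadjusted p under 0.05), while DESeq2 passed 5 (Hk2 as well).

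In the MHC class II gate 5 of the 10 genes were higher, against 13.5% of the 5258 genes tested, and 2 were lower, against 15.5% (29% in either direction). Pgk1, at 82.0, 109 and 99.0 CPM, was higher by 1.08 ± 0.21 (adjusted p = 0.000377 by edgeR's test) and without overlap of the runs. Ldha, at 155, 307 and 208 CPM, rose by 0.85 ± 0.17, and Pkm, at 233, 307 and 176 CPM, by 0.72 ± 0.16. Run 2 was the highest in all 3 genes. Tpi1 rose by 0.61 ± 0.21, with 64.7 CPM in run 1 below the 66.7 CPM of remaining microglia there, and Eno1 by 0.60 ± 0.17. Ldhb was at 466, 236 and 178 CPM and fell by 1.04 ± 0.24 (adjusted p = 0.00214). Hk2, at 302, 153 and 186 CPM, fell by 0.63 ± 0.17. Hif1a (59.4 ± 12.9 CPM, SD, n = 3) had a change of -0.28 with an interval of -0.81 to 0.25, Slc2a1 of 0.11 (-0.62 to 0.83) and Aldoa of 0.15 (-0.21 to 0.52). Only Pgk1 passed under all 14 alternatives. Without run 2 the calls left were Pgk1 and Ldha, without run 3 Pgk1, Ldha, Pkm and Ldhb, and a fit without the run as a block left Pgk1 and Eno1. The groups did not overlap for 2 genes above (Pgk1 and Eno1, against 11.8% of all genes) and 1 below (Ldhb, against 29.4%).

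Of the other genes, Gpi1 rose by 1.22 and Gapdh by 0.79 and Slc2a5 fell by 1.66 (10 tested) in this gate. Tkt and Pgls of the pentose phosphate pathway rose by 1.24 and 0.85 (2 of 4 tested). Vhl fell by 0.93, and Mxi1, Pdk1 and Ddit4, which are HIF targets, fell by 1.48, 1.09 and 1.00 (3 of 6 tested). Fh1, the fumarase of the citrate cycle (1 of 16 tested), rose by 1.09. The summed level of 6 monocyte markers was 125, 767 and 775 CPM here against 3.4 to 5.7 CPM in remaining microglia, with Plac8 and Ccr2 detected in each run, Ly6c2 in runs 2 and 3, and Vcan and F10 at 0. Median UMIs per cell were 5388, 4771 and 6920 in this gate against 4390, 3426 and 3650 in remaining microglia, and mt- UMIs 3.45, 2.53 and 3.36% against 2.58, 2.09 and 2.58%. With cells of at least 5000 UMIs in both populations Pgk1, Ldha, Pkm and Eno1 still passed as higher and Ldhb and Hk2 as lower, while Tpi1 was at 0.36 (adjusted p = 0.249). The part of monocyte-derived cells in these values was not tested.

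In the border macrophage gate 5 of the 10 genes were lower and none was higher, while 12.2% of all genes tested were higher, 13.5% lower and 25.8% changed in either direction. The groups did not overlap for 4 of the 10 (Hif1a, Slc2a1, Eno1 and Ldhb), all below, against 27.7% of all genes below and 13.2% above. Ldhb was at 340, 102 and 97.1 CPM against 610, 697 and 561 CPM in remaining microglia, a log2 change of -1.67 ± 0.25 (adjusted p = 1.4e-05 by edgeR's test). Run 1 stood apart from the other runs at more than 3 times their level. In run 1, 29.0% of the barcodes in this gate held RNA of both sexes, against 2.9 and 5.6% in runs 2 and 3. Without such cells the Ldhb change was -2.09, and without run 1 it was -2.51. Hif1a was at 44.0, 12.8 and 52.3 CPM, from 30, 2 and 14 UMIs, and its change was -0.92 ± 0.26 (adjusted p = 0.0107). Slc2a1 had 10, 2 and 1 UMIs in the 3 runs (14.7, 12.8 and 3.73 CPM), a change of -1.31 ± 0.41 (adjusted p = 0.0195), and -2.23 without run 1. Hk2, at 296, 186 and 224 CPM, fell by 0.52 ± 0.16 (adjusted p = 0.0185), and Eno1, at 116, 96.0 and 78.4 CPM, by 0.48 ± 0.18 (adjusted p = 0.0482).

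Only the Ldhb call was kept under all 15 alternatives. DESeq2 called 2 of the 10 genes, a fit without the run as a block 2, and leaving out run 1, 2 or 3 left 3, 1 and 2. Hif1a missed the threshold without run 1 (adjusted p = 0.0526) or run 2 (0.119), and Slc2a1 without run 2 (0.102) or run 3 (0.183). The other 5 genes had intervals that spanned 0: Aldoa -0.45 to 0.28, Tpi1 -0.29 to 0.57, Pgk1 -0.12 to 0.78, Pkm -0.44 to 0.27 and Ldha -0.39 to 0.36. Border macrophage cells had a median of 7302, 4230 and 4324 UMIs and 3.56, 3.39 and 3.43% mt- UMIs, both above remaining microglia in each run. Of 6 monocyte markers Ccr2 alone was detected, at 22.0, 76.8 and 239 CPM, against a sum of 3.4 to 5.7 CPM in remaining microglia, and its part in the result was not tested. With cells of at least 5000 UMIs in both populations Ldhb, Hif1a and Eno1 passed and Hk2 was at -0.36 (adjusted p = 0.193), and Slc2a1 was below the filter on low counts. Among the other genes Gpi1 rose by 1.06, and Slc2a5, the lactate exporter Slc16a3 and Pgam1 fell by 1.86, 1.52 and 0.51 (10 tested). Mpc1, a subunit of the mitochondrial pyruvate carrier, fell by 1.02 (16 tested). Pdk1, which restrains pyruvate entry into the citrate cycle, fell by 1.20, and Vhl by 1.16.

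Set directly against border macrophages, a comparison added after the levels had been seen, the MHC class II gate was higher in 3 of the 10 genes, while 2.51% of 5258 genes were higher, 3.46% lower and 5.97% changed in either direction. Eno1 differed by 1.08 ± 0.21 (adjusted p = 0.00118), Ldha by 0.87 ± 0.21 (0.0107) and Pkm by 0.80 ± 0.19 (0.0105) by edgeR's test. The runs did not overlap for 5 of the 10 genes (Slc2a1 and Pgk1 as well), all above, against 5.46% of all genes above and 8.86% below. Gapdh, at 896 against 414 CPM, followed at 1.10, with Pgam1 at 0.86 and Tkt at 0.87. Ldhb, low in both gates, differed by 0.64 with an interval of 0.07 to 1.20 (adjusted p = 0.202). Slc2a1 (1.41 ± 0.53), Pgk1 (0.75 ± 0.27), Hif1a (0.64 ± 0.35), Tpi1 (0.47 ± 0.26), Aldoa (0.24 ± 0.20) and Hk2 (-0.12 ± 0.18) missed the threshold. Eno1 alone passed under all 8 alternatives, and without the run as a block or without run 2 it was the only gene to pass.

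In the interferon gate 0 of the 10 genes passed edgeR's test, 0 had an unadjusted p under 0.05, and DESeq2 also called 0 (1 at an unadjusted p under 0.05), while 2.78% of all genes tested were called (2.76% higher, 0.019% lower). The 95% intervals of the log2 change included -0.67 to 0.75 for Slc2a1, -0.55 to 0.48 for Pgk1 and -0.55 to 0.39 for Tpi1, and changes within such intervals were not detectable at this depth. They were -0.30 to 0.34 for Hk2, -0.38 to 0.36 for Aldoa, -0.18 to 0.53 for Eno1 and -0.23 to 0.53 for Ldha. Hif1a was at 109, 68.7 and 100.1 CPM (95% interval of the change -0.24 to 0.71), Pkm at 164, 258 and 180 CPM (-0.03 to 0.66) and Ldhb at 602, 521 and 521 CPM (-0.71 to 0.23). The groups overlapped for all 10 genes, while 6.52% of all genes lay above and 7.7% below without overlap. In run 2 this gate held 1293 CPM of the summed monocyte markers, against 20.9 and 35.0 CPM in runs 1 and 3.

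Cycling cells (34, 9 and 14 per run, at least 4 of 10 markers such as Mki67 and Top2a) were too few in runs 2 and 3 for the test and are described. Their Pkm level was 333, 372 and 291 CPM, above every run of remaining microglia. Aldoa was at 107, 85.9 and 43.2 CPM, from 29, 6 and 4 UMIs, below every run of remaining microglia, and Hk2 was at 207, 157 and 183 CPM, likewise below. Hif1a, at 88.7, 114 and 75.5 CPM, overlapped them. The cells rich in immediate early genes such as Fos and Egr1 came almost all from run 3 (408 of 413). There Hif1a was at 81.9 CPM against 81.8 CPM in remaining microglia of the same run, Aldoa at 176 against 175, Ldha at 124 against 117, Hk2 at 379 against 368 and Ldhb at 512 against 561 CPM.

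By mean level over the 3 runs, Hif1a was ordered lipid marker (230 ± 103 CPM, SD), chemokine (196 ± 56.1), cycling (92.9 ± 19.8), interferon (92.8 ± 21.4), remaining microglia (79.1 ± 10.8), MHC class II (59.4 ± 12.9) and border macrophage (36.4 ± 20.8). Only the step from chemokine to cycling was free of overlap between neighbours in this order. Ldhb had the same gates at its low end and others at its top, with remaining microglia first (623 ± 69.0 CPM) and interferon next (548 ± 47.1). Chemokine (493 ± 30.1), cycling (490 ± 89.9) and lipid marker cells (469 ± 71.8) followed close together, and MHC class II (293 ± 152) and border macrophage cells (180 ± 139) were lowest. Its only step without overlap was from interferon to chemokine. Aldoa, Tpi1 and Pkm were highest in the lipid marker gate with no overlap with the next gate, while for Slc2a1, Pgk1, Eno1 and Ldha that gate overlapped the second. Hk2 had interferon (371 ± 71.3), remaining microglia (358 ± 62.2) and lipid marker cells (355 ± 89.6) at the top and cycling cells (183 ± 24.8) at the bottom.

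The balance of the lactate dehydrogenase subunits needs no library size. Ldhb gave 84.1, 79.9 and 82.7% of the summed Ldha and Ldhb UMIs in remaining microglia, a mean of 82.2% ± 2.13 (SD, n = 3). In the lipid marker gate the shares of runs 1, 2 and 3 were 70.0%, 55.7% and 52.1%, with exact (Clopper-Pearson) 95% intervals of 63.9 to 75.6%, 48.4 to 62.9% and 41.6 to 62.4%. In the MHC class II gate they were 75.0%, 43.5% and 46.2%, with intervals of 67.1 to 81.8%, 32.8 to 54.7% and 38.2 to 54.3%. In the border macrophage gate they were 74.1%, 44.4% and 47.3%, with intervals of 68.9 to 78.9%, 27.9 to 61.9% and 33.7 to 61.2%. Every run of these 3 gates lay below every run of remaining microglia, and run 1 was the highest in each. The intervals cover counting error only. In lipid marker cells the lower share went with higher Ldha, and Ldhb was also below remaining microglia in each run, though short of the threshold. In the MHC class II gate it went with higher Ldha and lower Ldhb, both past the threshold. In border macrophages it went with lower Ldhb and an Ldha change of -0.01 (95% interval -0.39 to 0.36). The interferon gate had a mean of 78.4% ± 4.40, chemokine cells 70.3% ± 2.06 and cycling cells 70.6% ± 2.47. Every run of the chemokine and cycling gates also lay below every run of remaining microglia, while the interferon gate overlapped them. With all gates made stricter together, which asked 1 more lipid marker, the mean of the lipid marker gate moved from 59.3% ± 9.47 to 48.8%. In the same setting, which asked all 4 MHC class II markers, the shares of the MHC class II gate were 67.6, 26.7 and 39.1%. Without barcodes holding RNA of both sexes those of border macrophages were 63.4, 41.2 and 39.6%.

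**Figure D3:**
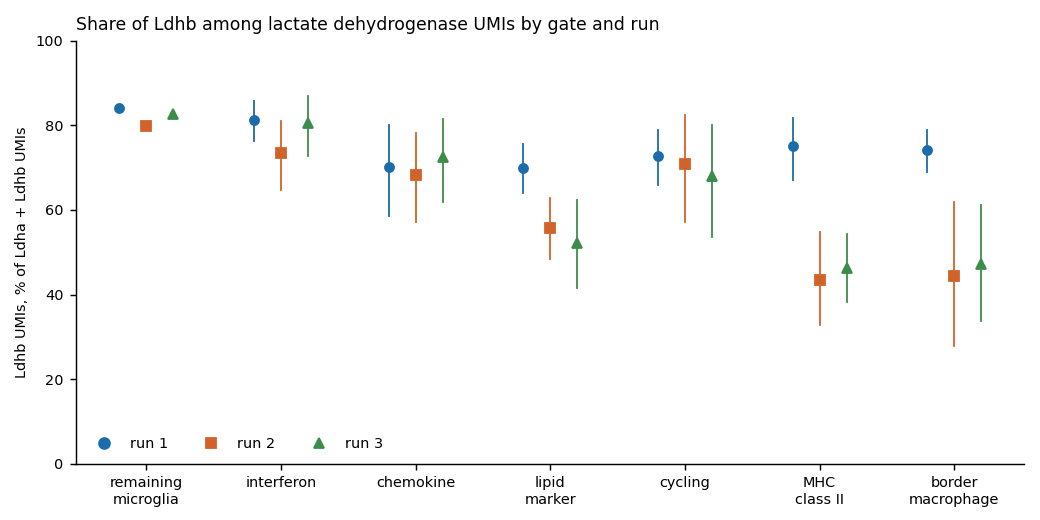
Ldhb UMIs as a percent of Ldha and Ldhb UMIs (vertical axis) in 7 marker gates (horizontal axis). Points are runs and lines exact 95% binomial intervals. Remaining microglia lie between 79.9 and 84.1%. All runs of the lipid marker, MHC class II, border macrophage, chemokine and cycling gates lie below them, and the interferon gate overlaps them.

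Within the remaining microglia, cells were divided in each run into quartiles of percent mt- UMIs, and mt- genes were taken out of the library sizes. The lowest quartile had a median of 1.13 to 1.53% and the highest of 3.42 to 4.12% mt- UMIs. Of the 10 genes 4 were higher in the highest quartile and 0 lower by edgeR's test (DESeq2 3 and 0), against 6.82% of 11001 genes higher, 4.95% lower and 11.8% changed in either direction. Ldhb, at 582, 684 and 533 CPM in the lowest and 646, 708 and 603 CPM in the highest quartile, rose by 0.20 ± 0.03 (adjusted p = 1.2e-11). Pkm, at 144, 186 and 138 against 154, 198 and 167 CPM, rose by 0.21 ± 0.04 (adjusted p = 9.03e-06). Aldoa rose by 0.18 ± 0.04 and Tpi1 by 0.17 ± 0.06. Aldoa was at 202, 263 and 167 CPM in the lowest and 225, 264 and 191 CPM in the highest quartile, nearly level in run 2. Tpi1 was at 66.1, 100 and 61.9 against 69.4, 104 and 70.8 CPM. The common dispersion, the fit's measure of spread beyond counting error, was 0.000231 here and 0.0198 for the tested gates. The pull toward the spread of all genes (prior degrees of freedom) was 463 here and 16.7 for the tested gates. The p-values of the quartiles thus rest on a small spread within the runs, taken mostly from all genes together. These changes were small beside the spread between runs: the groups overlapped for all 10 genes (2.95% of all genes lay above and 5.97% below without overlap), and a fit without the run as a block called 0, with 0 at an unadjusted p under 0.05. Hif1a (0.12, 95% interval 0.01 to 0.23), Pgk1 (0.14, 0.01 to 0.28), Ldha (0.11, 0.03 to 0.20), Eno1 (0.09, 0.0017 to 0.17), Slc2a1 (0.06, -0.11 to 0.23) and Hk2 (0.06, 0.0047 to 0.12) did not pass.

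With total UMIs alone in place of TMM factors, Ldhb changed by 0.12, Pkm by 0.14 and Aldoa by 0.11 and still passed, Tpi1 changed by 0.09 and did not, and Slc2a1 and Hk2 turned to -0.01 each. With each cell thinned to 2000 UMIs, 2 genes passed, Ldhb (0.18) and Eno1 (0.18). Tpi1 (0.18), Aldoa (0.14) and Pkm (0.14) did not pass there (adjusted p = 0.214, 0.0715 and 0.151), and the median change of the 10 genes was 0.15 with thinning and 0.13 without. With quartiles over all cells in place of remaining microglia, 7 passed. Without run 1, run 2 or run 3 Tpi1 missed the threshold (adjusted p = 0.13, 0.0803 and 0.231). Ldhb kept its share of lactate dehydrogenase UMIs across the quartiles, at 83.6 and 84.0% in the lowest and highest quartile of run 1, 79.1 and 79.7% in run 2 and 81.9 and 83.4% in run 3. Of other genes, Gpi1 rose by 0.28, Pfkfb3 by 0.25, Pgls by 0.20 and Gapdh by 0.18, and Ddit4 fell by 0.33 and Slc2a5 by 0.10. Aldoc, the aldolase of astrocytes, was at 4.10 CPM in the lowest and 11.6 CPM in the highest quartile (adjusted p = 1.21e-13), and is named after its values were seen since it lies under the 20 CPM set for naming. The summed astrocyte markers were at 398, 254 and 269 CPM in the lowest and 419, 280 and 272 CPM in the highest quartile, and their part in the result was not tested.

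Quartiles of UMIs per cell, given for comparison without a test, went with larger differences. Mean Ldhb was 473 CPM in the shallowest and 710 CPM in the deepest quartile, Pkm 120 and 183 CPM, Aldoa 168 and 243 CPM, Tpi1 61.6 and 86.9 CPM and Pgk1 40.7 and 62.0 CPM. Eno1 (124 and 161 CPM) and Ldha (119 and 149 CPM) were also higher in the deepest quartile, in each run. Hk2 ran the other way, from 404 to 332 CPM, and did so in each run. Hif1a (76.9 and 85.4 CPM) and Slc2a1 (35.0 and 31.9 CPM) differed less. In each run Hif1a was higher and Slc2a1 lower in the deepest than in the shallowest quartile. The highest quartile of percent mt- UMIs also had more UMIs per cell than the lowest in each run (a median of 4492 against 4152, 3412 against 3270 and 3709 against 3482).

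**Figure D4:**
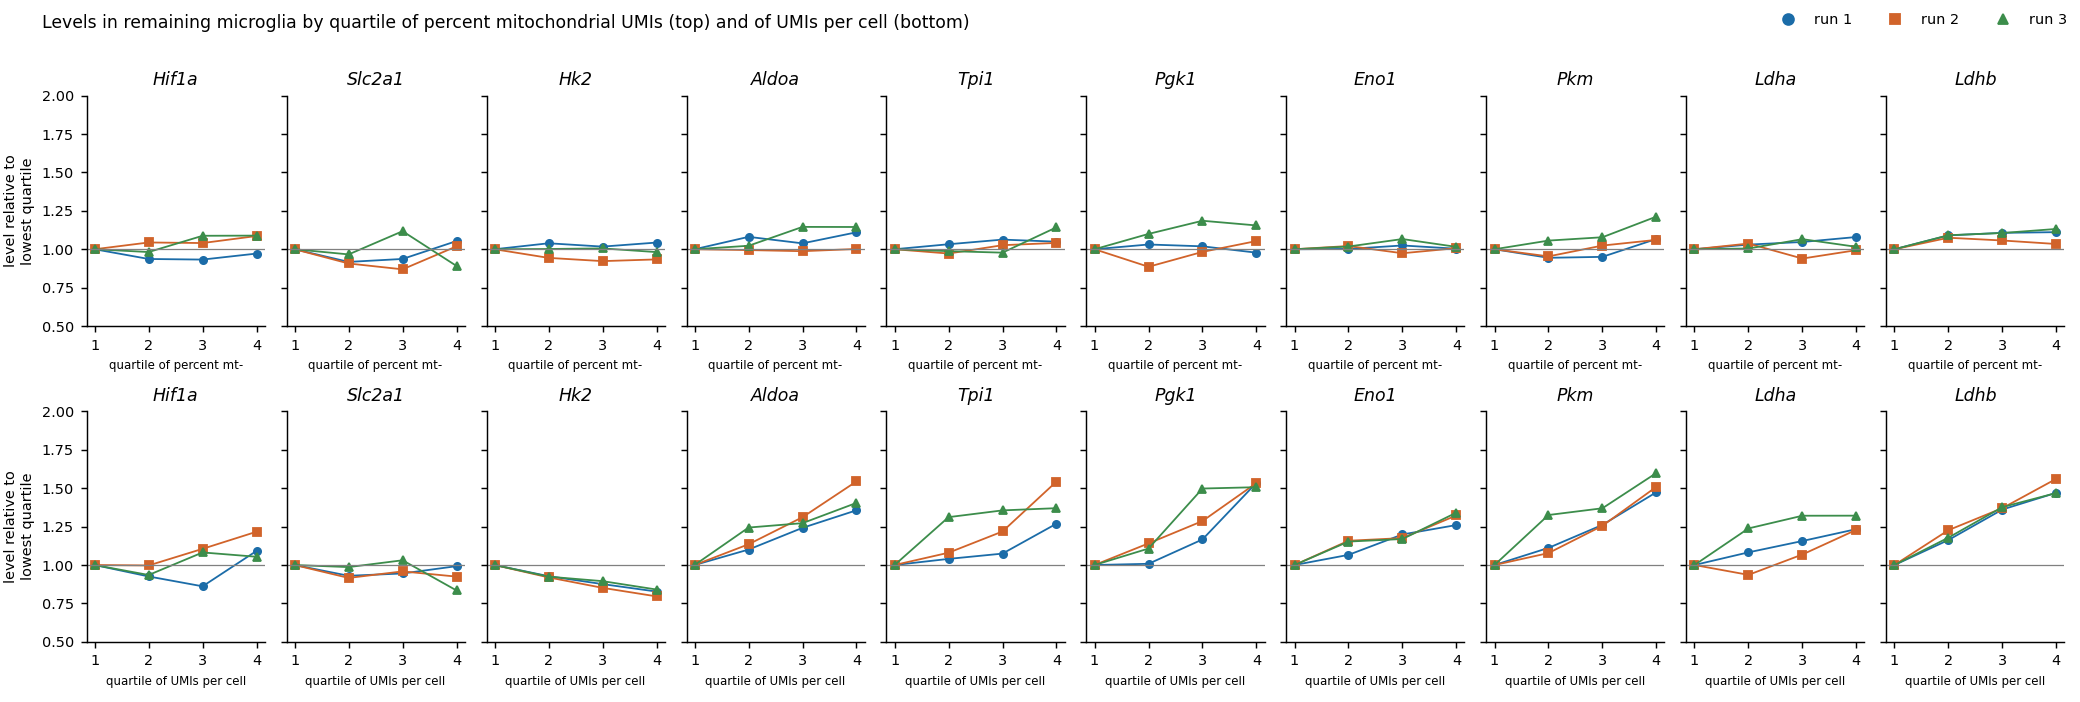
Level of the 10 genes in remaining microglia relative to the lowest quartile of the same run (vertical axis), by quartile of percent mt- UMIs (top) and of UMIs per cell (bottom). Lines are runs; the upper lines stay near 1, while Ldhb, Pkm, Aldoa, Tpi1, Pgk1, Eno1 and Ldha end higher at the deepest quartile and Hk2 lower.

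Cells with Xist and cells with Y-linked transcripts were compared among remaining microglia, since both sexes were pooled. Of the 10 genes 0 passed edgeR's test (1, Hif1a, at an unadjusted p under 0.05) and 0 passed with DESeq2, while 0.871% of 11254 genes were called (0.524% higher, 0.347% lower). The groups overlapped for all 10, with 2.11% of all genes above and 1.82% below without overlap. The changes lay between -0.10 (Pgk1, 95% interval -0.23 to 0.02) and 0.16 (Slc2a1, -0.0046 to 0.32). The intervals were -0.17 to 0.0079 for Hk2, -0.17 to 0.0075 for Aldoa, -0.06 to 0.17 for Tpi1 and -0.16 to 0.03 for Eno1. They were -0.10 to 0.09 for Pkm, -0.09 to 0.11 for Ldha and -0.03 to 0.14 for Ldhb. Hif1a was at 91.5, 72.7 and 79.9 CPM in cells with Xist and 85.5, 58.1 and 82.6 CPM in cells with Y-linked UMIs. Of 10 other HIF target genes tested 2 were lower in cells with Xist, Ddit4 by 0.68 (98.9 against 150 CPM, adjusted p = 1.91e-11) and P4ha1 by 0.24 (160 against 189 CPM, adjusted p = 0.000684).

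Across the 5 populations tested and the 3 runs (15 points, centred per run), the genes most like each member were listed among 6164 genes by Pearson's r of log2(CPM + 1). The points share libraries and differ in depth, so r is given as a description. Hif1a was most like Manf (r = 0.94) and Sdf2l1 (0.94), and Gapdh was among the 3 closest genes of both Pkm and Ldha (0.95 each). Tpi1 was most like Mif (0.95), Pgk1 like Nme1 (0.94), Aldoa like Ctsz (0.93) and Eno1 like Ssr4 (0.93). Ldha was most like Cst7 (0.96), which is itself a marker of the lipid marker gate. Hk2 was most like Lgmn (0.96), Slc2a1 like Cadm1 (0.93) and Ldhb like Plxdc2 (0.99). Among the 10 genes themselves the closest were Pkm and Ldha (0.92) and Aldoa and Tpi1 (0.90), while Ldhb with Ldha (0.24) and with Tpi1 (0.03) and Hk2 with Pgk1 (-0.29) were far apart.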

How the data were processed

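Single-cell RNA of sorted tdTomato-positive hippocampal cells was counted in 3 droplet runs. The deposited matrices hold raw UMI counts per gene and barcode, per the file headers, which name software version 3.0.2 for run 1 and 3.1.0 for runs 2 and 3. The submitters' processing notes name Cell Ranger, mm10 and Seurat 4.0. Aligner settings, annotation and the selection of barcodes are not given in the sources used here.

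Cells with at least 1000 UMIs, 500 genes and at most 10% mt- UMIs were kept and given the first of 12 marker gates they met, in a fixed order: T and NK, choroid plexus, astrocyte transcript, border macrophage, MHC class II, cycling, lipid marker, interferon, chemokine, immediate early, Emp3 and remaining microglia. UMIs were summed per gate and run. Gates with at least 20 cells in each run were fitted together by edgeR 4.0.16 (filterByExpr, TMM, quasi-likelihood F test, run as block, Benjamini-Hochberg over all genes tested), and an adjusted p under 0.05 was called. The chemokine, cycling and immediate early gates fell short and were described. A fold change is on the fitted log2 scale and levels are UMIs per 1000000 (CPM), which are compared within a gene only. Deviations of 1 run in the compared sums correlated at 0.248 to 0.454 for gates and 0.842 to 0.910 for quartiles and sex-linked groups. Cells with Xist (at least 2 UMIs) and no Y-linked UMI were set against cells with at least 1 Y-linked UMI and no Xist.

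No doublet caller was run, and doublets were weighed by barcodes that hold Xist together with Y-linked UMIs. Empty barcodes were not analysed here. Alternatives were DESeq2 1.42.0, RLE factors, no filter, no block, each run left out, the 2 populations alone, other cell filters and stricter gates. The stricter setting asked 1 more marker (or UMI) of every gate before remaining microglia, as far as its list allowed. Cells that failed a gate could enter a later one, so a stricter gate is not always a subset of the first. The looser chemokine gate, both direct comparisons between gates, total UMIs alone, mt- or ribosomal genes left out of library sizes and the 5000 UMI minimum were added after seeing the data. On simulated counts with known changes the fit recovered 48.7% of the changed genes tested for the border macrophage gate, 48.8% for the lipid marker gate and 88.8% for the quartiles. In the border macrophage gate the share was 6.5% at 1.5-fold, 54.2% at 2-fold and 100% at 3-fold. False calls were 11.6% of the calls for border macrophages, 7.1% for the MHC class II gate, 0% for the lipid marker gate and 2.1% for the quartiles. The simulation changed 200 genes, gave the populations of a run otherwise equal means and drew all genes with 1 common dispersion. Many more genes were called in these gates, so the rates need not hold for the data. All 10 genes are named in each comparison. Of the other lists at most 3 genes per direction are named, those with the largest change among called genes with at least 20 CPM and 1 direction in 3 runs. Likeness was ranked by the 3 highest Pearson r. Members and lists were chosen with earlier results of these data known. Analyses used Python 3.11.15, numpy 2.4.6, scipy 1.17.1, pandas 2.3.3, matplotlib 3.10.9 and R 4.3.3. Gene positions are GENCODE M21 (GRCm38) and promoters RefSeq GRCm38.p6.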

Additional observations from a re-analysis of the deposited data

How the results depend on the processing

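With 3 runs and 22 to 69 cells per gate and run, the calls rest on few UMIs, fewest for Slc2a1 and Hif1a in border macrophages, and on runs that may share animals. Of the values of called genes over all alternatives, 97 of 105 stayed past the threshold in the lipid marker gate, 81 of 98 in the MHC class II gate, 46 of 73 in border macrophages, 23 of 40 in the looser chemokine gate and 39 of 52 between the mt- quartiles, and none changed sign. In border macrophages the number of the 10 genes called went from 5 to 2 with DESeq2, and to 3 with RLE size factors, no filter on low counts, the 2 populations alone or cells of at least 5000 UMIs. With all gates made stricter together the number went to 1, and the border macrophage gate then held 74, 27 and 48 cells against 69, 35 and 54. In the looser chemokine gate it went from 5 to 3 with no filter on low counts. In the lipid marker gate it went from 7 to 9 with the 2 populations alone, of which 8 were higher and 1 lower. Between the mt- quartiles it went from 4 to 2 with cells thinned to 2000 UMIs and to 7 with all cells. With a run left out the number was 1 to 3 in border macrophages, 2 to 7 in the MHC class II gate, 6 in the lipid marker gate, 1 to 3 in the looser chemokine gate, 0 to 3 for lipid marker against looser chemokine, 1 to 3 for MHC class II against border macrophage and 3 to 4 between quartiles. The mean Ldhb share with a run left out was 53.9 to 62.9% in lipid marker, 44.8 to 60.6% in MHC class II and 45.9 to 60.7% in border macrophage cells, and a stricter lipid marker gate gave 48.8%. The cause was not tested, apart from the fewer cells or genes that some of these settings leave by construction.

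Runs were a block in each fit, since both sums of a run come from 1 library. Without that block 2 of the 10 genes were called in border macrophages, 2 in the MHC class II gate, 6 in the lipid marker gate, 1 in the looser chemokine gate, 0 for lipid marker against looser chemokine, 1 for MHC class II against border macrophage and 0 between the mt- quartiles.

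Over all genes, the count called ranged over the alternatives from 665 to 1640 in border macrophages (1354 as reported), 631 to 2018 in the MHC class II gate (1526), 312 to 1483 in the lipid marker gate (938), 92 to 248 in the interferon gate (146), 109 to 393 in the looser chemokine gate (363), 24 to 163 for lipid marker against looser chemokine (131), 101 to 433 for MHC class II against border macrophage (314), 5 to 2328 between mt- quartiles (1294) and 0 to 124 between Xist and Y-linked cells (98). The split into higher and lower moved with the scaling. It was 643 and 711 in border macrophages against 775 and 431 with RLE factors and 741 and 369 with DESeq2, 709 and 817 in the MHC class II gate against 895 and 489 with RLE and 595 and 1287 with total UMIs alone, 405 and 533 in the lipid marker gate against 585 and 356 with RLE, 191 and 172 in the looser chemokine gate against 255 and 75 with RLE, 750 and 544 between quartiles against 498 and 1830 with total UMIs alone, and 59 and 39 between Xist and Y-linked cells against 29 and 38 with RLE. RLE factors moved the median log2 change of all genes from -0.12 to 0.03 in border macrophages, from -0.14 to 0.02 in the MHC class II gate, from -0.11 to 0.01 in the lipid marker gate and from -0.09 to 0.03 in the looser chemokine gate.

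Genes that had not passed changed sign under some settings, as log2 changes. In border macrophages Tpi1 was -0.113 in cells of at least 5000 UMIs. Ldha was 0.138 with DESeq2, 0.136 with RLE, -0.156 to 0.0855 with a run left out, 0.00214 in cells of at least 2000 UMIs, 0.116 without cells with Xist and Y-linked UMIs and 0.0483 in the stricter gate. Aldoa was 0.0699 with DESeq2, 0.0649 with RLE, -0.215 to 0.0235 with a run left out and 0.0408 without cells with both sexes' UMIs, and Pkm was 0.0579 with DESeq2 and 0.0677 with RLE. In the MHC class II gate Slc2a1 was -0.0524 with total UMIs alone and -0.109 to 0.295 with a run left out, and Aldoa was -3.55e-05 and -0.0641 to 0.317. In the lipid marker gate Hk2 was 0.103 with DESeq2, 0.11 with RLE, 0.0049 without the block and -0.0975 to 0.0487 with a run left out.

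In the interferon gate Pgk1 was 0.052 with DESeq2, 0.0533 with RLE, -0.227 to 0.0588 with a run left out, 0.0294 without cells with both sexes' UMIs, 0.0966 in the stricter gate and 0.0116 in cells of at least 5000 UMIs. Slc2a1 was -0.0426 without the block, -0.273 to 0.122 with a run left out and -0.00417 in cells of at least 2000 UMIs. Hk2 was -0.128 to -0.00505 with a run left out, -0.0552 in cells of at most 5% mt- UMIs, -0.0388 without cells with both sexes' UMIs and -0.256 in cells of at least 5000 UMIs. Tpi1 was 0.00478 with DESeq2, 0.00602 with RLE and -0.472 to 0.00449 with a run left out. Aldoa was 0.0777 with DESeq2, 0.0756 with RLE, 0.013 without the block, 0.00943 with total UMIs alone, -0.217 to 0.0781 with a run left out and 0.0406 in the stricter gate. With a run left out Ldha was -0.0673 to 0.17 and Hif1a -0.0126 to 0.251. In the looser chemokine gate Slc2a1 was -0.349 to 0.623 with a run left out. For lipid marker against looser chemokine, with a run left out, Slc2a1 was -0.241 to 1.59, Hif1a -0.743 to 0.345 and Ldhb -0.241 to 0.0776. Between quartiles Slc2a1 was -0.00869 and Hk2 -0.00939 with total UMIs alone. Between Xist and Y-linked cells Ldha was -0.0108 with DESeq2, -0.00727 with RLE and -0.0587 to 0.0655 with a run left out, and Pkm was -0.034 to 0.0372 with a run left out and 0.0292 with more UMIs required. The cause was not tested. The alternatives planned for the chemokine gate as first set, the cycling gate and the immediate early gate were not run, since these gates had fewer than 20 cells in a run.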

Other observations

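Small gates that entered no comparison also differed in the 10 genes. In the T and NK gate (2, 3 and 8 cells) Ldhb was at 67.8, 88.3 and 49.1 CPM, from 1, 1 and 2 UMIs, and Ldha at 542, 530 and 319 CPM, so that Ldhb gave 11.1, 14.3 and 13.3% of the lactate dehydrogenase UMIs. The choroid plexus gate (33, 33 and 4 cells), which is not myeloid by its markers, had Ldhb at 1203, 1693 and 1256 CPM, Pgk1 at 178, 442 and 314 CPM and Eno1 at 417, 417 and 942 CPM. In the gate of cells with Emp3, Fxyd5 and Tnfsf13b (25, 12 and 14 cells) Hk2 was at 525, 280 and 456 CPM, Pkm at 230, 297 and 287 CPM and Ldhb at 480, 709 and 659 CPM. Among hexokinases, Hk3 gave 15.9% ± 1.69 (SD, n = 3) of the UMIs of Hk1, Hk2 and Hk3 in border macrophages and 8.93% in remaining microglia. These values have no test.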
